A study of Mus musculus with 8 samples.

Results

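The 10 genes described here, called members below, are the genes of mitochondrial DNA that encode subunits of respiratory complex I (*mt-Nd1*, *mt-Nd2*, *mt-Nd3*, *mt-Nd4l*, *mt-Nd4*, *mt-Nd5* and *mt-Nd6*, 7 genes) and of complex IV, cytochrome c oxidase (*mt-Co1*, *mt-Co2* and *mt-Co3*, 3 genes). They were taken by symbol from a table of 22520 genes and assembled transcripts, and all 10 were found there, each with 1 row. The samples were CD8+ T cells of mouse spleen, cultured for 6 days with antibodies against CD3 and CD28 and with interleukin 2, a persistent stimulation used to induce exhaustion. From day 3 the medium held either 40 μM DADA (diisopropylamine dichloroacetate, an inhibitor of pyruvate dehydrogenase kinase) or the solvent DMSO, and 4 libraries of bulk RNA were made for each group. Both groups thus shared the stimulation, the cytokine and the time and differed by treatment, and the genotype labels of the groups (control and model) coincide with it. The cells were a culture model of exhaustion, with neither tumor nor infection, and the spleens were of wild-type mice. The study's methods put the mice it bought at 6 to 8 weeks of age, and the sources used here do not tie these libraries to a strain or say whether animals were pooled.

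Complex I takes electrons from NADH and pumps protons across the inner mitochondrial membrane, and complex IV passes electrons to oxygen. Each is built from subunits of both genomes. In complex I, the mitochondrially encoded subunits form the core of the membrane arm, with ND1, ND2, ND3, ND4L and ND6 nearer to the matrix arm and ND4 and ND5 at its distal end. In complex IV, the mitochondrially encoded subunits carry the catalytic core. Mitochondrial DNA is transcribed into long RNAs that hold many genes, which are then cut into single mRNAs, largely at the tRNAs between them, so the levels of mRNAs from the same precursor depend on processing and stability as well as on transcription. T cells build up their respiratory chain on activation, and CD8+ T cells under persistent stimulation are known for impaired mitochondrial respiration.

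The members were expressed at high levels, as deposited in FPKM (fragments per kilobase of transcript, scaled to the mapped fragments of the library), a unit that takes length into account. Setting levels side by side between members is limited by overlaps, short transcripts and near-identical copies, given below. Library totals ranged from 438299 to 456939 FPKM, and the 10666 genes tested were those at 1 FPKM or above in 4 or more libraries. By the mean over the 8 libraries, *mt-Co1* ranked 2 among these genes and *mt-Nd3*, the lowest member, ranked 339. The defining CD8+ T cell markers *Cd8a*, *Cd8b1*, *Cd3d*, *Cd3e* and *Cd3g* were expressed in every library, whereas among 23 markers of erythroid, NK, CD4 T, myeloid and B cells, only *Cd79b* reached 1 FPKM in any library. In bulk RNA, fewer cells of a type and less RNA per cell cannot be told apart.

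The members are shown by the start of their coding sequence, so that the separate genes of neighbouring mRNAs can be told apart. These are the first 30 bases in the coding direction, from the GENCODE M21 transcripts (GRCm38), with the start codon in capitals. The genes are given in their order along mitochondrial DNA.
mt-Nd1: GTGttctttattaatatcctaacactcctc
mt-Nd2: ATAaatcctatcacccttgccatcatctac
mt-Co1: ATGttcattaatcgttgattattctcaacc
mt-Co2: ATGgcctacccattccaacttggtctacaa
mt-Co3: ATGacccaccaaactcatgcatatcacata
mt-Nd3: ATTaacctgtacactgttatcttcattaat
mt-Nd4l: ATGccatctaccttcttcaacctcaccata
mt-Nd4: ATGctaaaaattattcttccctcactaatg
mt-Nd5: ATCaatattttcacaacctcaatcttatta
mt-Nd6: ATGaataattatatttttgttttaagttca

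Of the members, only *mt-Nd6* lies on the opposite strand, and its sequence held 28.1% G and 5.97% C, whereas the C content of the other members lay between 22.1% and 29.97%. *mt-Nd4l* and *mt-Nd4* are not separated by a tRNA and overlap by 7 bases on the same strand. They are translated from a shared mRNA. The overlap is shown in capitals at the end of *mt-Nd4l* and at the start of *mt-Nd4*, because the pair turned out to differ in the direction of its change in FPKM.
mt-Nd4l end: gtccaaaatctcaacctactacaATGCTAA
mt-Nd4 start: ATGCTAAaaattattcttccctcactaatg

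DADA treatment was accompanied by a split among the complex I members. Of these, 4 genes, *mt-Nd1*, *mt-Nd2*, *mt-Nd3* and *mt-Nd4l*, fell, and 3 genes, *mt-Nd4*, *mt-Nd5* and *mt-Nd6*, rose, while the 3 complex IV members rose by smaller amounts, although *mt-Co1* was lower under quantile normalization (given with its values below). Each of the 10 members had an adjusted p-value under 0.05 (limma on log2(FPKM + 1), Benjamini-Hochberg over all genes tested), 6 higher and 4 lower in DADA-treated cells. Of all genes tested, 66.2% passed the same threshold, 30.9% as higher and 35.3% as lower, so that passing it is not particular to the members. The groups did not overlap for any of the 10 members, which held for 60.6% of the genes tested. A called change of at least 0.5 on the log2 scale was seen for 6 of the 10 members and for 15.7% of the genes tested. Among the 643 genes that averaged 100 FPKM or more, as the members did, 84.9% were called and 19.1% were called with a change of at least 0.5. The median log2 fold change was 0.11 over the 10 members and -0.02 over all genes tested, and the former says little, as the members went both ways. Permuting the libraries exactly, in all 70 ways and two-sided, gave p = 0.0286 for each member, the smallest value that 4 against 4 libraries allow.

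**Figure D1:**
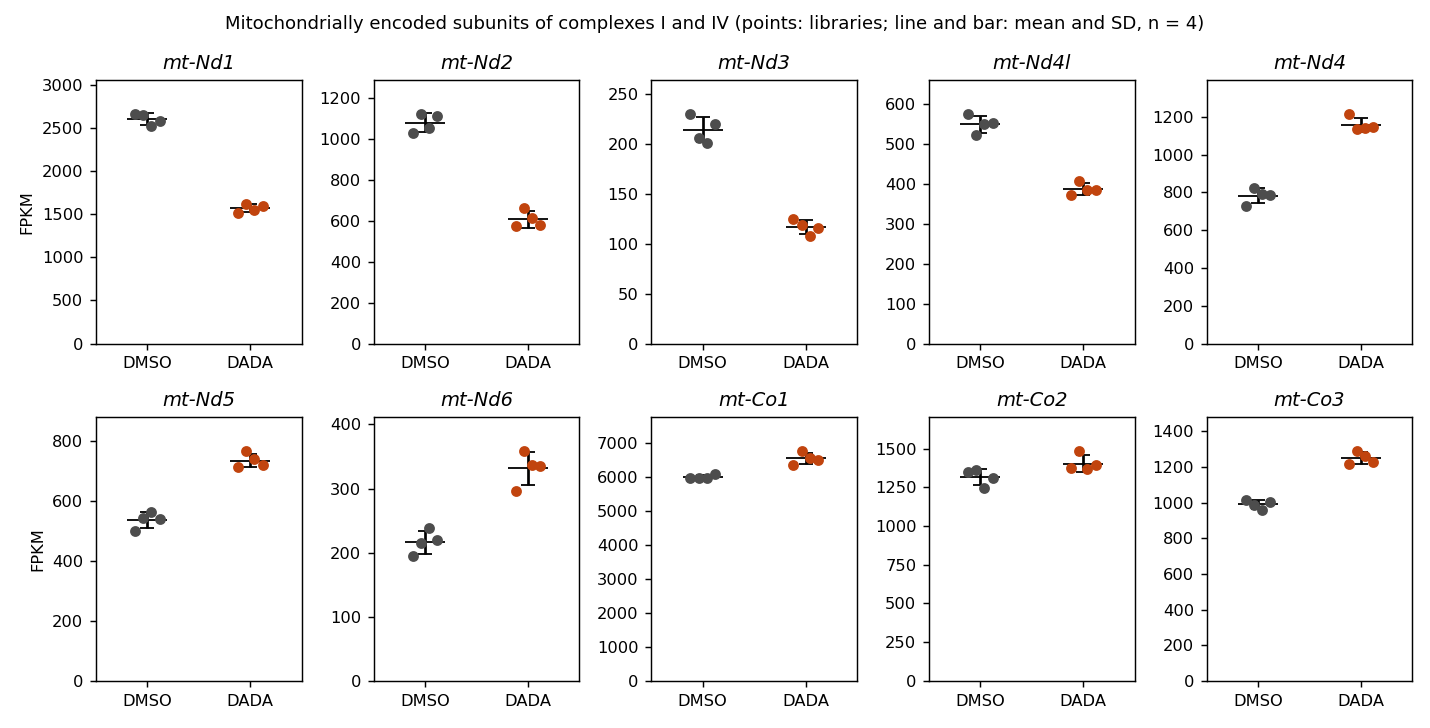
FPKM (vertical axes, from 0) of the 10 members in the 4 DMSO libraries (grey points) and the 4 DADA libraries (orange points), with the mean and SD of each group (n = 4). The panels of *mt-Nd1*, *mt-Nd2*, *mt-Nd3* and *mt-Nd4l* step down and those of *mt-Nd4*, *mt-Nd5* and *mt-Nd6* step up, with no overlap between the groups in any panel.

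*mt-Nd1*, which encodes the subunit at the junction of the matrix and membrane arms, where ubiquinone binds, was at 2662, 2654, 2521 and 2584 FPKM in DMSO 1 to DMSO 4. It was at 1515, 1621, 1547 and 1591 FPKM in DADA 1 to DADA 4. Every DADA library lay far below every DMSO library. The mean fell by 39.8%, from 2605 ± 66.1 to 1568 ± 46.7 FPKM (mean ± SD, n = 4 per group here and below), with a log2 fold change of -0.73 (95% confidence interval -0.80 to -0.67, limma, adjusted p = 1.18e-08). *mt-Nd2*, which encodes a proton-pumping subunit related to ND4 and ND5, was at 1029, 1122, 1057 and 1116 FPKM with DMSO. With DADA it was at 573, 662, 616 and 580.2 FPKM, again with a wide gap between the groups. Its mean fell by 43.8%, from 1081 ± 45.3 to 608 ± 40.6 FPKM, with a log2 fold change of -0.83 (95% confidence interval -0.94 to -0.72, limma, adjusted p = 1.74e-07).

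*mt-Nd3*, which encodes a small subunit with a loop that reaches towards the ubiquinone site, was the least abundant member and had the largest fall. It was at 230.2, 207, 202 and 220.3 FPKM with DMSO and at 125, 119, 108 and 116 FPKM with DADA. The highest DADA library was DADA 1 and the highest DMSO library DMSO 1. Its mean fell by 45.4%, from 215 ± 12.96 to 117 ± 7.07 FPKM, with a log2 fold change of -0.87 (95% confidence interval -0.98 to -0.75, limma, adjusted p = 2.17e-07). *mt-Nd4l*, which encodes another small membrane subunit, was at 574, 522, 549 and 552 FPKM with DMSO and at 371, 407, 383 and 383 FPKM with DADA. Of the 4 members that fell it moved least. Its mean fell by 29.7%, from 549 ± 21.3 to 386 ± 15.0 FPKM, with a log2 fold change of -0.51 (95% confidence interval -0.59 to -0.43, limma, adjusted p = 7.07e-07).

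*mt-Nd4*, which encodes a proton-pumping subunit of the distal membrane arm, went the other way. It was at 729, 825, 791 and 787 FPKM with DMSO and at 1214, 1137, 1139 and 1145 FPKM with DADA. DADA 1 stood above the other 3 DADA libraries, which lay close together. The mean rose from 783 ± 40.0 to 1159 ± 37.0 FPKM, an increase of 48.0% with a log2 fold change of 0.57 (95% confidence interval 0.48 to 0.65, limma, adjusted p = 6.05e-07). *mt-Nd5*, whose product is the most distal proton-pumping subunit, was at 501, 541, 564 and 541 FPKM with DMSO and at 714, 764, 738 and 719 FPKM with DADA. The lowest value of each group was in its library 1. Its mean rose by 36.7%, from 537 ± 26.3 to 734 ± 22.7 FPKM, with a log2 fold change of 0.45 (95% confidence interval 0.37 to 0.53, limma, adjusted p = 2.54e-06).

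*mt-Nd6*, a subunit of the proximal membrane arm, is the only protein-coding gene read from the opposite strand. It was at 194, 215, 238 and 219 FPKM with DMSO and at 297, 358, 336 and 335 FPKM with DADA. Its spread between replicates was the widest among the members, with a coefficient of variation of 8.32% with DMSO and 7.67% with DADA, yet the groups stayed apart. Its mean rose by 53.1%, from 217 ± 18.01 to 332 ± 25.4 FPKM, the largest increase of the 10 members, with a log2 fold change of 0.61 (95% confidence interval 0.46 to 0.76, limma, adjusted p = 2.10e-05). *mt-Nd5* and *mt-Nd6* overlap by 14 bases at their ends on opposite strands. The study's methods name a stranded mRNA kit and the sample labels another kit. Neither says whether fragments were assigned by strand, and without strand, RNA of *mt-Nd6* and RNA antisense to it cannot be told apart.

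The complex IV members changed less. *mt-Co1*, the subunit with the site where oxygen is reduced, was at 5970.45, 5994, 5966 and 6101 FPKM with DMSO and at 6377, 6762, 6578 and 6518 FPKM with DADA. All DADA libraries were above all DMSO libraries, by a small margin beside the level itself. The mean rose by 9.17%, from 6008 ± 63.1 to 6559 ± 159 FPKM, with a log2 fold change of 0.13 (95% confidence interval 0.07 to 0.18, limma, adjusted p = 0.00143). The direction for *mt-Co1* turned under quantile normalization, which gives each library the same values by rank, to -0.40 on the log2 scale. *mt-Co1* ranked 2 in each DMSO library and 3 in each DADA library, with *Eef1a1* above it in all 8 and *Gzmb* above it in the 4 DADA libraries. Quantile normalization thus gave it the same value in every library of a group, and -0.40 is the step between these ranks. Its p-value would not measure the spread between replicates and is not given. Without the filter on low values, the difference had an adjusted p-value of 0.0581 (limma).

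*mt-Co2*, which takes up electrons from cytochrome c, was at 1349, 1363, 1243 and 1309 FPKM with DMSO and at 1372, 1482, 1366 and 1394 FPKM with DADA. The lowest DADA library and the highest DMSO library nearly touched. Its mean rose by 6.65%, from 1316 ± 53.7 to 1404 ± 53.4 FPKM, with a log2 fold change of 0.09 (95% confidence interval 0.01 to 0.17, limma, adjusted p = 0.0435). This call did not hold when DMSO 3, DMSO 4, DADA 2 or DADA 4 was left out, with log2 fold changes of 0.07, 0.09, 0.07 and 0.10 (limma, adjusted p = 0.120, 0.0826, 0.105 and 0.0722), without the filter on low values (adjusted p = 0.0951) and without the mean-variance trend (adjusted p = 0.0733). *mt-Co3*, the third core subunit, was at 1012, 988, 957 and 1006 FPKM with DMSO and at 1215, 1286, 1263 and 1229.8 FPKM with DADA. It had the clearest change of the complex IV members. The mean rose by 26.0%, from 991 ± 24.8 to 1249 ± 32.4 FPKM, with a log2 fold change of 0.33 (95% confidence interval 0.27 to 0.39, limma, adjusted p = 2.14e-06).

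**Figure D2:**
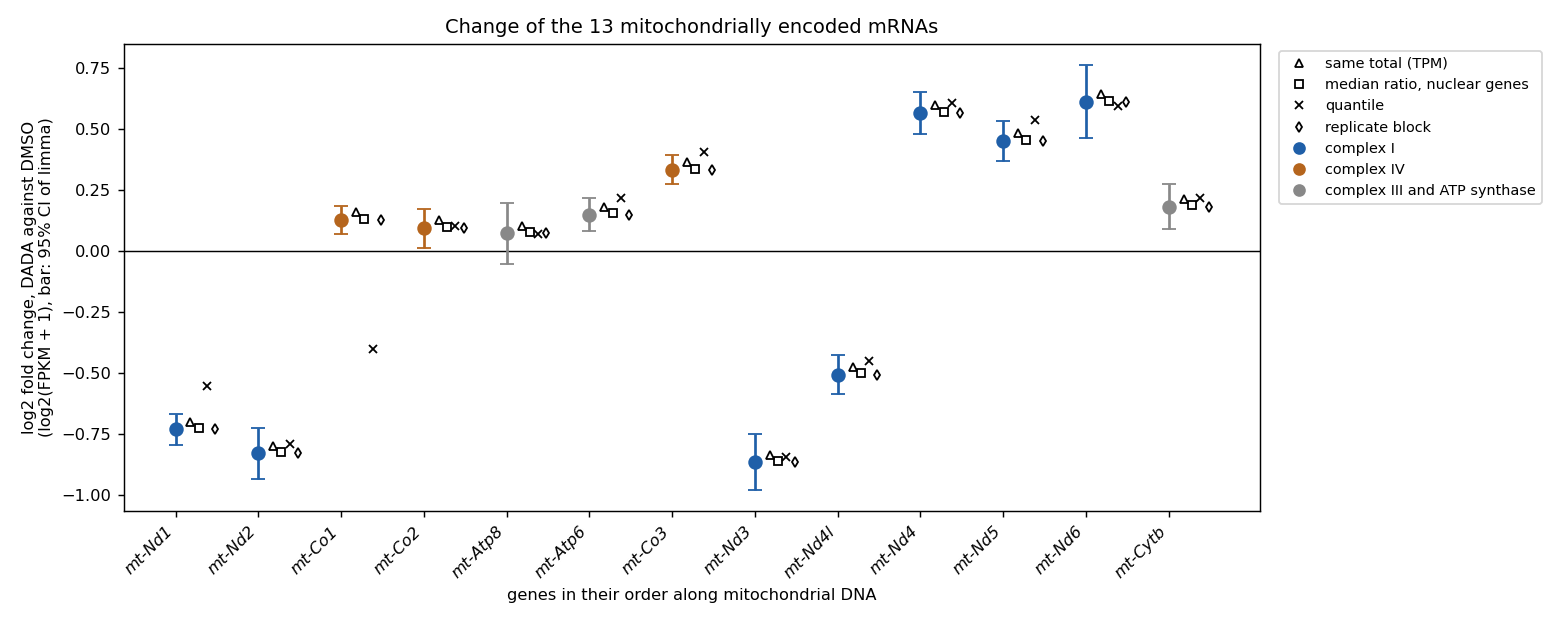
Log2 fold change of DADA against DMSO (vertical axis, log2(FPKM + 1) scale) for the 13 mitochondrially encoded mRNAs, in their order along mitochondrial DNA (horizontal axis), where filled points and bars give the limma estimate and its 95% confidence interval and the other symbols the estimate under 4 other settings. Neighbours *mt-Nd4l* and *mt-Nd4* stand at -0.51 and 0.57, and only the quantile value of *mt-Co1*, at -0.40, is on the other side of 0 from its main estimate.

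The direction of change did not run evenly along the mitochondrial genome. The genes that fell were *mt-Nd1* and *mt-Nd2* at positions 1 and 2 of the 13 protein-coding genes, and *mt-Nd3* and *mt-Nd4l* at positions 8 and 9. Between these pairs lay *mt-Co1*, *mt-Co2*, *mt-Atp8*, *mt-Atp6* and *mt-Co3*, with log2 fold changes between 0.07 and 0.33. After them came *mt-Nd4*, *mt-Nd5*, *mt-Nd6* and *mt-Cytb*. The other 3 mitochondrially encoded mRNAs encode subunits of ATP synthase and of complex III. *mt-Atp6* rose from 1418 ± 51.6 to 1572 ± 37.9 FPKM (log2 fold change 0.15, limma, adjusted p = 0.00157), and *mt-Cytb* from 986 ± 51.4 to 1118 ± 47.5 FPKM (log2 fold change 0.18, limma, adjusted p = 0.00321). *mt-Atp8*, which overlaps *mt-Atp6* by 43 bases, had overlapping groups, with 1060.2 ± 84.3 FPKM under DMSO and 1113 ± 49.96 FPKM under DADA (log2 fold change 0.07, 95% confidence interval -0.05 to 0.20, limma, adjusted p = 0.281). Each of the 4 genes that fell encodes a complex I subunit, and none of the 6 mRNAs of the other complexes was lower with DADA, except *mt-Co1* under quantile normalization. By gene identifier, none of the 2 mitochondrial rRNAs and 22 mitochondrial tRNAs of GENCODE M21 was among the genes with deposited values.

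Neighbouring members moved apart in FPKM, by ratios taken within each library. The ratio of *mt-Nd4* to *mt-Nd4l*, which share an mRNA, was 1.27, 1.58, 1.44 and 1.43 in DMSO 1 to DMSO 4 and 3.27, 2.79, 2.97 and 2.99 in DADA 1 to DADA 4. Its mean was 2.10 times higher with DADA, at 3.01 ± 0.197 against 1.43 ± 0.127, and DMSO 1 and DADA 1 were the lowest and the highest of the 8 libraries. As these genes share an mRNA, this ratio of FPKM cannot be read as a ratio of separate mRNAs, and what sets it was not tested. *mt-Co3* and *mt-Nd3* are also neighbours, separated by 1 tRNA gene. Their ratio lay between 4.40 and 4.78 with DMSO and between 9.69 and 11.7 with DADA, a mean 2.31 times higher. *mt-Nd2* and *mt-Co1*, with 5 tRNA genes between them, gave a ratio of *mt-Co1* to *mt-Nd2* between 5.34 and 5.80 with DMSO and between 10.2 and 11.2 with DADA. *mt-Nd4* over *mt-Nd1* was 0.301 ± 0.0184 with DMSO and 0.740 ± 0.0436 with DADA. Multiplying a library by a single factor leaves these ratios as they are. Quantile normalization, which is not a single factor, gave log2 fold changes of -0.40 for *mt-Co1* and -0.79 for *mt-Nd2*, in place of 0.13 and -0.83, and so a smaller distance between them. The ratios were chosen after the values were seen and are given without a test.

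**Figure D3:**
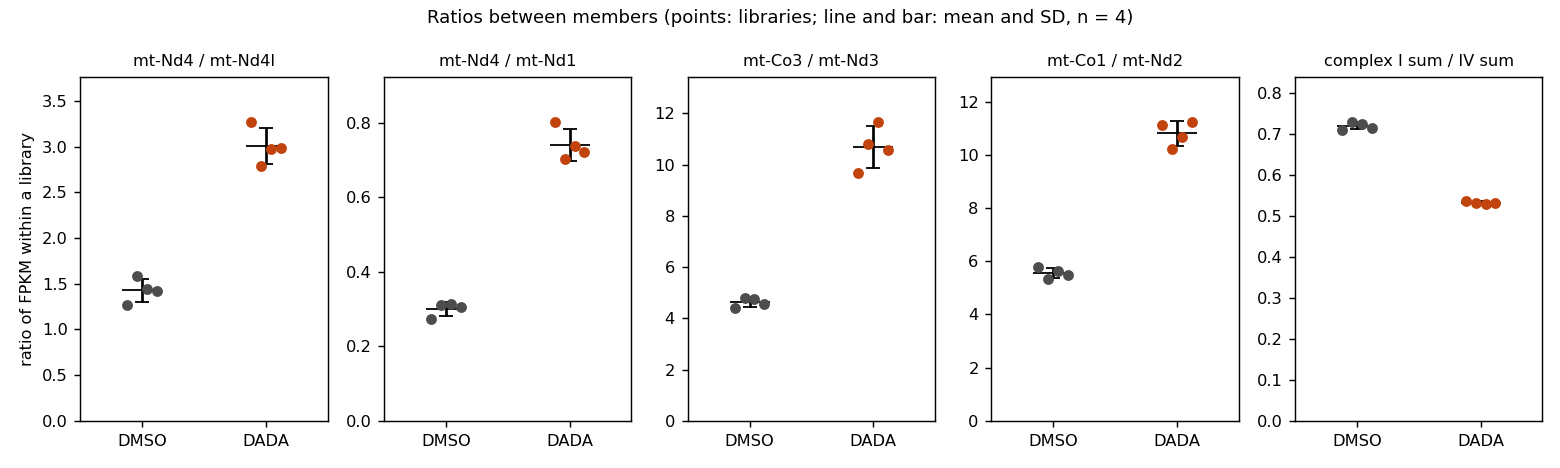
Ratios of FPKM within a library (vertical axes, from 0) for 4 pairs of members and for the complex I sum over the complex IV sum, in DMSO (grey) and DADA (orange) libraries, with the mean and SD of each group (n = 4). The 4 pair ratios are 1.94 to 2.46 times higher with DADA, and the complex I sum over the complex IV sum falls from 0.720 to 0.532.

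The total of the members was nearly level between the groups. The summed FPKM of the 10 members was 14252, 14432, 14090 and 14434 with DMSO and 13774, 14597, 14077 and 14012 with DADA, so the groups overlapped. The difference of the means (DADA minus DMSO) was -187 FPKM as deposited, but 127 after rescaling to the same total and 145 after rescaling to the same total of nuclear genes, so it has no stable direction. All 13 mitochondrially encoded mRNAs took 3.83% to 3.98% of all FPKM with DMSO and 3.96% to 4.12% with DADA. Within this total, the complex I sum fell from 5987 ± 80.5 to 4904 ± 113 FPKM and the complex IV sum rose from 8315 ± 105 to 9211 ± 236 FPKM, without overlap in either. The complex I sum over the complex IV sum was between 0.711 and 0.729 with DMSO and between 0.529 and 0.537 with DADA. The sum of the 4 complex I members that fell went from 4450.4 ± 82.0 to 2679.7 ± 93.8 FPKM, and that of the 3 that rose from 1537 ± 77.5 to 2224 ± 25.045 FPKM. *mt-Nd1* and *mt-Nd2* were the most abundant of the 4 that fell.

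As shares of the summed FPKM of the 13 mRNAs, *mt-Nd1* went from 14.7% ± 0.407 to 8.75% ± 0.103, *mt-Nd2* from 6.08% ± 0.168 to 3.39% ± 0.153, *mt-Nd3* from 1.21% ± 0.0818 to 0.655% ± 0.0457 and *mt-Nd4l* from 3.09% ± 0.160 to 2.15% ± 0.0299 (SD, n = 4 in each group). *mt-Nd4* went from 4.41% ± 0.175 to 6.47% ± 0.344, *mt-Nd5* from 3.02% ± 0.139 to 4.10% ± 0.0531 and *mt-Nd6* from 1.22% ± 0.1004 to 1.85% ± 0.103. *mt-Co1* made up the largest share, 33.8% ± 0.415 with DMSO and 36.6% ± 0.233 with DADA, and *mt-Co3* went from 5.58% ± 0.160 to 6.97% ± 0.0911. For these 9 members the groups did not overlap (two-sided exact permutation test, p = 0.0286 for each, the smallest the design allows). The share of *mt-Co2* overlapped between the groups, at 7.41% ± 0.288 with DMSO and 7.83% ± 0.132 with DADA (exact permutation test, p = 0.0571). The decreases in 4 complex I members and the increases in the other members thus held also relative to the mitochondrial total, *mt-Co2* excepted. This is not separate evidence. Shares add up to a fixed whole, so a fall in some raises others, and the summed FPKM of the 13 mRNAs was nearly level (17766 ± 258 with DMSO and 17918 ± 447 with DADA).

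**Figure D4:**
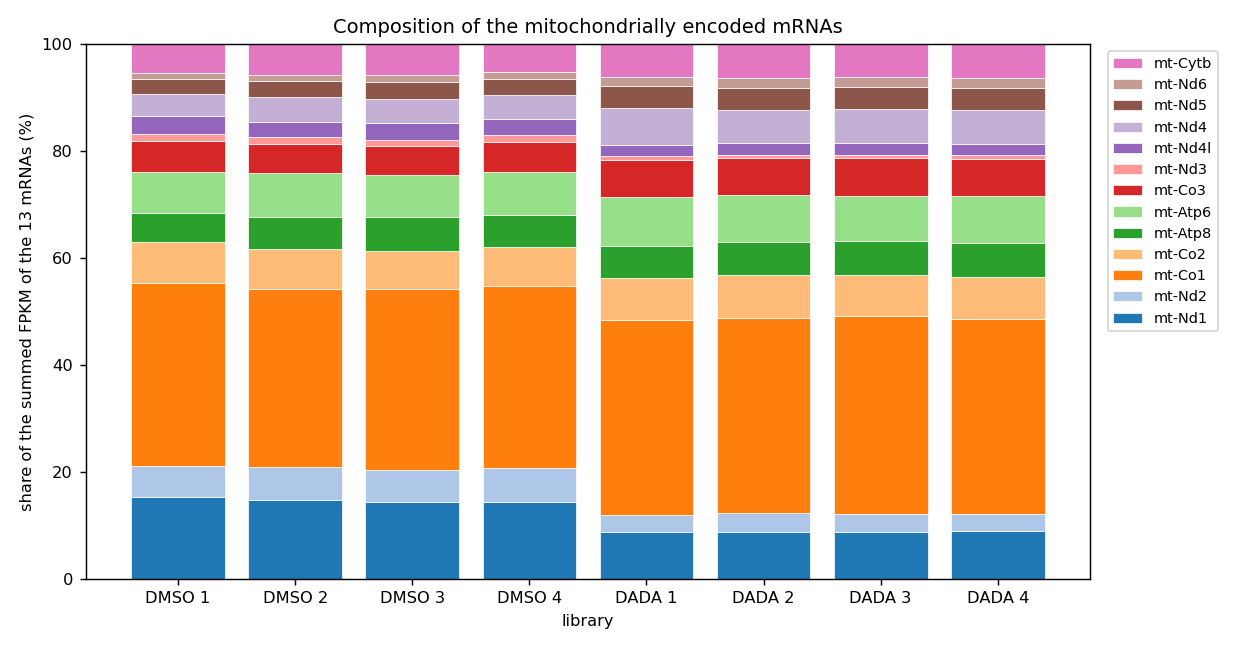
Share of each of the 13 mitochondrially encoded mRNAs in their summed FPKM (vertical axis, percent) in each of the 8 libraries (horizontal axis), stacked in the order along mitochondrial DNA. The 4 libraries of a group look alike, the *mt-Nd1* block shrinks from 14.3% to 15.2% in the DMSO libraries to 8.67% to 8.90% in the DADA libraries, and the *mt-Nd4* block grows.

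The order of the levels in FPKM changed. With DMSO it ran from *mt-Co1* through *mt-Nd1*, *mt-Co2*, *mt-Nd2*, *mt-Co3*, *mt-Nd4*, *mt-Nd4l*, *mt-Nd5* and *mt-Nd6* to *mt-Nd3*, a 28.0-fold range in FPKM. The ranges of neighbours in this order overlapped for *mt-Nd4l* with *mt-Nd5* and for *mt-Nd6* with *mt-Nd3*, so these pairs did not differ beyond their spread. With DADA the order was *mt-Co1*, *mt-Nd1*, *mt-Co2*, *mt-Co3*, *mt-Nd4*, *mt-Nd5*, *mt-Nd2*, *mt-Nd4l*, *mt-Nd6* and *mt-Nd3*, a 55.9-fold range, and no neighbours overlapped. *mt-Nd2* dropped from above *mt-Co3* and *mt-Nd4* to below *mt-Nd5*. *mt-Nd1* was 1.98 times as abundant as *mt-Co2* with DMSO and 1.12 times with DADA.

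Some of these values rest on genes that have near-identical copies or short transcripts. In GENCODE M21, 10 gene models outside mitochondrial DNA shared at least 95% identity over at least 100 bases with a member, and none of them was a row of the table used here. For 8 members the longest match was 1545 bases of *mt-Co1* at 97.6% identity, 954 bases of *mt-Nd5* at 95.2%, 684 bases of *mt-Co2* at 95.9%, 510 bases of *mt-Nd2* at 96.7%, 345 bases of *mt-Nd3* at 99.7% and, with no mismatch, 876 bases of *mt-Nd4*, 783 bases of *mt-Co3* and 294 bases of *mt-Nd4l*. How fragments that fit both places were assigned is not given, so the levels of these 8 members are uncertain. *mt-Nd1* and *mt-Nd6* had no such match among the gene models, and copies without a gene model were not searched for. *mt-Nd3* and *mt-Nd4l* are 348 and 297 bases long. Among 59 other genes with a single transcript of 200 to 400 bases, the median log2 fold change was 0.10, and *mt-Atp8*, at 204 bases, was at 0.07. The part that length or copies have in the differences was not tested.

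The nuclear partners of the members were followed with lists of genes by function. Of 37 nuclear-encoded complex I subunits tested, 3 were higher, 22 lower and 12 not called, with a median log2 fold change of -0.17, against -0.02 over all genes tested. The largest changes were in *Ndufv3*, an accessory subunit of the matrix arm, which rose from 35.6 ± 0.772 to 61.7 ± 3.24 FPKM (log2 fold change 0.78, limma, adjusted p = 5.51e-08), and in *Ndufa5*, another accessory subunit, which fell from 19.0 ± 0.838 to 13.6 ± 0.580 FPKM (log2 fold change -0.45, limma, adjusted p = 6.03e-06). *Ndufv1*, the subunit that binds NADH, had a log2 fold change of 0.23, and *Ndufb7* one of -0.41. Of 14 nuclear complex IV subunits tested, 4 were higher, 5 lower and 5 not called, with a median of -0.02. *Cox6a2*, the muscle form of a regulatory subunit, fell the most, from 56.0 to 7.23 FPKM (log2 fold change -2.79, limma, adjusted p = 1.90e-10), *Ndufa4* had a log2 fold change of -0.26, and *Cox7a1* and *Cox6b2*, forms best known from muscle and testis, had log2 fold changes of 0.82 and 0.57 at low levels. *Cox7a1* was under 1 FPKM in each DMSO library and passed the filter on low values only through the DADA libraries, so its call, 1 of the 4 higher, was favoured by the filter. The other higher subunits were abundant. *Cox5a* rose from 152 to 189 FPKM (log2 fold change 0.32, limma, adjusted p = 3.59e-05). *Cox5b* rose from 107 to 132 FPKM with overlapping groups (log2 fold change 0.31, limma, adjusted p = 0.0271). The other lower subunits, *Cox6a1*, *Cox7c* and *Cox8a*, had log2 fold changes of -0.16, -0.21 and -0.15.

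Genes for the expression of mitochondrial DNA were lower more often than higher. In the list for its transcription and replication, 2 of 18 were higher and 8 lower, with a median log2 fold change of -0.12. *Top1mt*, the mitochondrial topoisomerase, fell from 12.03 to 6.54 FPKM (log2 fold change -0.79, limma, adjusted p = 1.91e-07), *Polg2*, a subunit of the mitochondrial DNA polymerase, had a log2 fold change of -0.41, and *Primpol* and *Mterf4* rose, with log2 fold changes of 0.34 and 0.18. Of 22 genes for the processing and stability of mitochondrial RNA, 1 was higher and 15 lower, with a median of -0.18. The largest decreases were in *Fastkd2*, which binds mitochondrial RNA, from 11.5 to 7.65 FPKM (log2 fold change -0.54, limma, adjusted p = 1.34e-06), and in *Lrpprc*, which stabilises mitochondrial mRNAs, from 38.1 to 27.0 FPKM (log2 fold change -0.48, limma, adjusted p = 7.77e-08). *Grsf1*, an RNA-binding protein of mitochondrial RNA granules, was the only one higher, from 36.8 to 41.5 FPKM (log2 fold change 0.17, limma, adjusted p = 0.00333). Of 26 genes for insertion and assembly of the mitochondrially encoded subunits, 1 was higher and 15 lower, with a median of -0.18. *Acad9*, which acts in complex I assembly, and *Cox10*, which acts in making the heme of complex IV, had log2 fold changes of -0.66 and -0.55, and *Sco1*, a copper chaperone of complex IV, one of 0.13. None of these counts was tested against other lists, and of all genes tested 30.9% were higher and 35.3% lower.

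**Figure D5:**
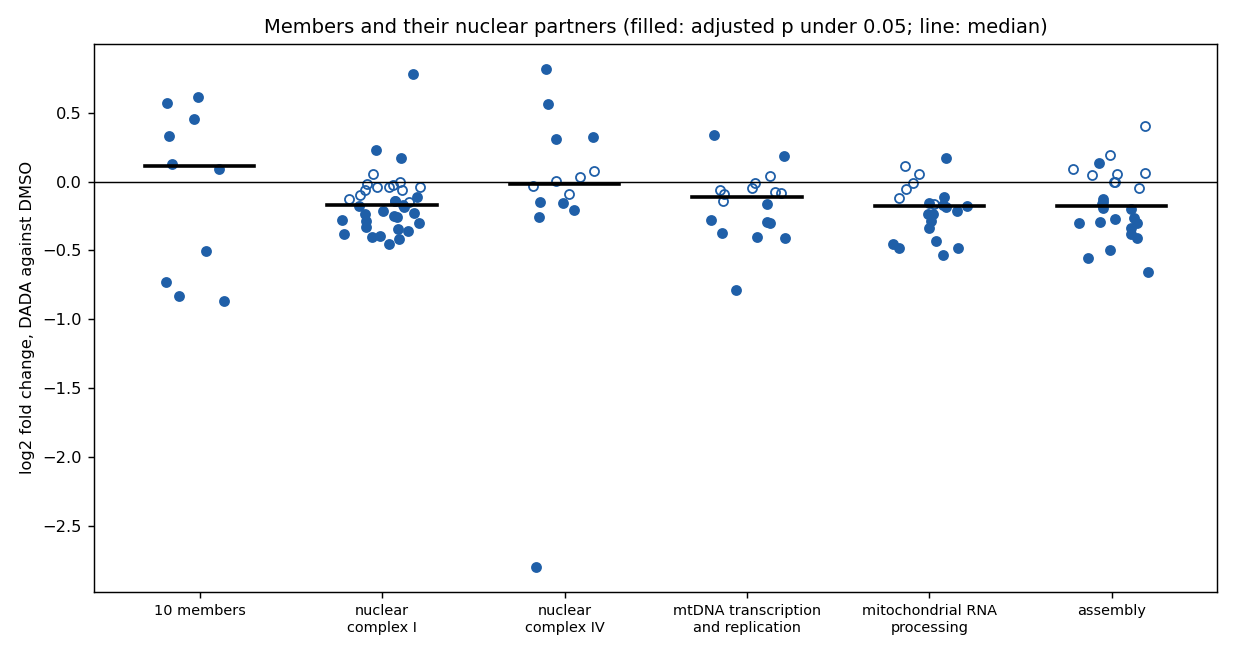
Log2 fold change of DADA against DMSO (vertical axis) for each tested gene (points) of the 10 members and of 5 lists of nuclear genes (horizontal axis). Filled points had an adjusted p-value under 0.05 and the lines are medians. The members lie in groups on both sides of 0, whereas the medians of the nuclear lists lie between -0.18 and -0.02.

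The profiles most like those of the extreme members were found by the root mean square difference over the 8 libraries, on the log2(FPKM + 1) scale after taking off the DMSO mean, among 8175 genes that are not mitochondrially encoded and have a mean of at least 5 FPKM. For *mt-Nd6*, the member with the largest rise, these were *Sirt6* (0.0778), *Vhl* (0.0787) and *Prrg4* (0.0850). For *mt-Nd3*, the member with the largest fall, they were *Npepl1* (0.0580), *Fanca* (0.0658) and *Wdr12* (0.0710).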

How the data were processed

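The authors deposited 1 table of FPKM values for 8 mouse libraries, 1 column per library, from paired reads of 150 bp. The submitters' processing notes name CASAVA 1.8.2, FastQC 0.11.9, HISAT2 2.0.5, StringTie 1.3.3, Picard 1.41 and SAMtools 0.1.18 and the builds GRCm39 and GRCh38, without their roles. The table holds no counts. Among low values of 3735 genes with a single transcript, 46.8% to 52.5% lay within 0.1 of a whole fragment at the best-fitting depth. Chance gives 20% at a fixed depth and more at the best-fitting of many depths. Whole reads were thus not recovered, the depth is unknown and no count test was run.

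Libraries were grouped by their titles. Values were analysed as log2(FPKM + 1) for genes at 1 FPKM or more in at least 4 libraries, with limma 3.58.1 in R 4.3.3 (1 term for DADA, eBayes with trend, Benjamini-Hochberg adjustment over all genes tested, call at an adjusted p-value under 0.05). On this scale the change of low genes is understated. The fit was tested on simulated data in which a far smaller share of genes changed than was called here, so that test says little about these data. Single values were tested by exact permutation in scipy 1.17.1. P-values for shares were not adjusted, although a Benjamini-Hochberg adjustment over the 13 mRNAs had been planned. The members and gene lists were chosen with earlier results of these data known, which limits every p-value given for them. Named genes were all members, the other mitochondrially encoded mRNAs, the 2 largest called changes in each direction of each nuclear list and the 3 nearest profiles of the extreme members. The remaining called nuclear complex IV subunits were named as well. Gene order, lengths and sequences came from GENCODE M21 by gene identifier. No coordinates are given, as it is on GRCm38. Alternatives were other scalings, pseudocounts and filters, no trend, a replicate block and each library left out.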

Additional observations from a re-analysis of the deposited data

Results flagged for a closer look

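In 3 of 118 groups of 4 libraries, 1 library stood apart by Dixon's criterion at the 95% level, in which the distance from the nearest other library is divided by the whole range. About 1 in 20 groups, or 5.9 here, would be picked out by chance, and the groups overlap in their libraries. *mt-Nd4* was at 1214 FPKM in DADA 1 and between 1137 and 1145 FPKM in the other DADA libraries (ratio 0.889). Without DADA 1, its log2 fold change was 0.54 in place of 0.57. The share of *mt-Co1* in the 13 mRNAs was 37.0% in DADA 3 and between 36.4698% and 36.5148% in the other DADA libraries (ratio 0.907), a gap far smaller than the difference from the DMSO libraries. The share of *mt-Atp8* was 5.97% in DADA 1 and between 6.27% and 6.30% in the other DADA libraries (ratio 0.895).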

How the results depend on the processing

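The 7 complex I members and *mt-Co3* kept their direction and their call under each of the 18 alternatives tried. The widest ranges of log2 fold change among them were -0.75 to -0.56 for *mt-Nd1* and 0.42 to 0.54 for *mt-Nd5*, and *mt-Nd3* stayed between -0.90 and -0.83. For *mt-Co1*, quantile normalization gave -0.40, a step between ranks 2 and 3, and the absence of a filter on low values ended the call. For *mt-Co2*, 6 alternatives ended the call, with log2 fold changes between 0.07 and 0.10, while its share passed the threshold with the 10 members as denominator (a difference of 0.742 percentage points, exact permutation test, p = 0.0286). When single libraries were omitted, 5 to 6 members were called higher and 4 lower, against 3107 to 3200 and 3593 to 3665 of all genes, and the summed FPKM of the members differed by -347 to -72.9 (DADA minus DMSO, -187 with all libraries, -138 after median-ratio scaling, 127 and 145 after rescaling to the same total over all or over nuclear genes). Quantile normalization moved the share of calls that were higher from 46.7% to 42.5%, and the total over nuclear genes moved it to 51.9%. Over all genes tested, correlations of the deviations of same-numbered libraries from their group means lay between -0.12 and 0.0953. With so few libraries, this cannot settle whether the replicate numbers pair them. A replicate block gave 3251 higher and 3744 lower genes and changed no call among the members. With the block, the standard error fell for some members (*mt-Nd3*, 0.0511 to 0.0264) and rose for others (*mt-Nd4l*, 0.0351 to 0.0421). The depth is unknown, so no counting error is given.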
